A study of Mus musculus with 9 samples.

Results

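Annexins are cytosolic proteins that bind phosphatidylserine and other acidic phospholipids when calcium rises, through a conserved core of repeats, and each member carries an amino-terminal tail of its own that binds partner proteins. They act in granule and vesicle fusion, in membrane repair and, once outside the cell, as signals. In neutrophils annexin A1 is the best known: it is stored in the cytosol and granules, is released on activation, and acts through formyl peptide receptors to limit recruitment and promote clearance of the cells. The 8 annexin genes described here, Anxa1 to Anxa7 and Anxa11, were taken by symbol from the deposited table of 24532 mouse genes, with the reads of each gene's transcripts summed. The table also lists Anxa8, Anxa9, Anxa10 and Anxa13, whose values are given separately.

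C57BL/6 mice of the wild type genotype gave neutrophils from 3 tissues (bone marrow, blood and lung), which were sorted by flow cytometry. PolyA RNA was sequenced in 3 libraries a tissue, 9 in all. No treatment is named in the labels. The series describes the libraries as biological replicates. The sources used here do not give the age or sex of the mice, the gate and markers of the sort, the way tissues were dispersed, or whether a library came from 1 animal or a pool. If the libraries of a tissue shared animals, the p-values measure only the spread between these samples.

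Libraries held 42045548 to 56796219 counted reads. All 14 neutrophil markers on the list (among them Ly6g, Csf3r, Cxcr2 and S100a8) were detected in every library, with summed levels of 112700 to 161982 CPM (reads of a gene scaled to the size of its library) in bone marrow, 31185 to 44721 in blood and 21791 to 40068 in lung. Lung libraries 1 and 2 stood apart from lung library 3. Their summed fibroblast markers (11 genes) were 1939 and 1560 CPM, against 191 in lung library 3, 54.9 to 98.3 in blood and 123.2 to 301 in bone marrow. Where lung results are also given with lung library 3 alone, the lung is 1 library, so its SE and p take their spread from the other tissues and such a value has no replicate check of its own.

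The genes of the family are spread over the genome, and the positions below are in mm10. Anxa1 lies at chr19:20373434-20390671 on the minus strand, Anxa2 at chr9:69453683-69491785 on the plus strand and Anxa11 at chr14:25842155-25886804 on the plus strand. These 3 genes gave most of the family's signal, so their upstream sequences are shown. Each is the 250 bases before the annotated start, 5′ to 3′ on the gene's own strand, from RefSeq with the build GRCm38.p6, at chr19:20390672-20390921, chr9:69453433-69453682 and chr14:25841905-25842154, and capitals mark the letters TATAAA.
Anxa1 upstream: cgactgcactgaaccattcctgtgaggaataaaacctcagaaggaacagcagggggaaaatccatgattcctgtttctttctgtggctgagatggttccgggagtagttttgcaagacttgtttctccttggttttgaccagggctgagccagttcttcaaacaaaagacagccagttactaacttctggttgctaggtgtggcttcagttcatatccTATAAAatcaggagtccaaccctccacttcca
Anxa2 upstream: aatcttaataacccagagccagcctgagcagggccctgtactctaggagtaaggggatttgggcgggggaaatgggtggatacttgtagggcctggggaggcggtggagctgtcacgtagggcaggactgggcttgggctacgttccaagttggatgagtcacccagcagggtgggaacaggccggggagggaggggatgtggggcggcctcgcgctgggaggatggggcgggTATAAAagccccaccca
Anxa11 upstream: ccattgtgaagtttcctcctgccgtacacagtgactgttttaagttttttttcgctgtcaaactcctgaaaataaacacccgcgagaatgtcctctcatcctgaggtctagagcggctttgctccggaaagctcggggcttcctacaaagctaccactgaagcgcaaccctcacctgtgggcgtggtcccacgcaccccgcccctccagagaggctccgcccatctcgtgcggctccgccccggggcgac
The letters TATAAA, searched on both strands, were found once in the Anxa1 window, starting 32 bases before the start, and once in the Anxa2 window, starting 17 bases before it. They were not in the windows of Anxa4, Anxa5, Anxa7 or Anxa11, and 12.4% of all 32841 mouse windows of this length held them. The Anxa11 window held 17 CG dinucleotides and the Anxa2 window 9, while the Anxa1 window held 2, against a median of 6 over all windows. The GC box GGGCGG matched 3 times in each of the Anxa2 and Anxa11 windows and not in that of Anxa1, and 32.7% of all windows held it. TTNNGNAA, a motif of C/EBP factors, matched once in the Anxa1 window and not in the other two (36.9% of all windows), and GAGGAA, of PU.1 and Ets factors, once each in those of Anxa1 and Anxa11 (23.3%). The letters AGAACA, a half-site of the glucocorticoid receptor, were in none of these 3 windows, against 16.1% of all windows. Windows for 6 of the 8 genes were matched by symbol, and Anxa3 and Anxa6 had none in the table used.

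The family's summed level was highest in bone marrow. In FPKM (fragments scaled by transcript length and library size), which allows levels of different genes to be compared, the 8 genes summed to 3229 ± 312 (SD, n = 3) in bone marrow, 1691 ± 165 in blood and 1506 ± 61.7 in lung. Anxa1 and Anxa2 made up 87.2% ± 0.557 of that sum in bone marrow, 86.9% ± 0.952 in blood and 76.5% ± 2.65 in lung. Anxa11 supplied 8.34% ± 0.383 in bone marrow and 7.67% ± 0.330 in blood, and 16.1% ± 0.510 in lung, where lung library 3 (16.2%) lay between the other two. The other 5 genes ranged from a mean of 1.22 FPKM (Anxa4 in blood) to 69.0 FPKM (Anxa3 in bone marrow). Because these are bulk samples, fewer cells of a type and less RNA per cell cannot be told apart.

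**Figure D1:**
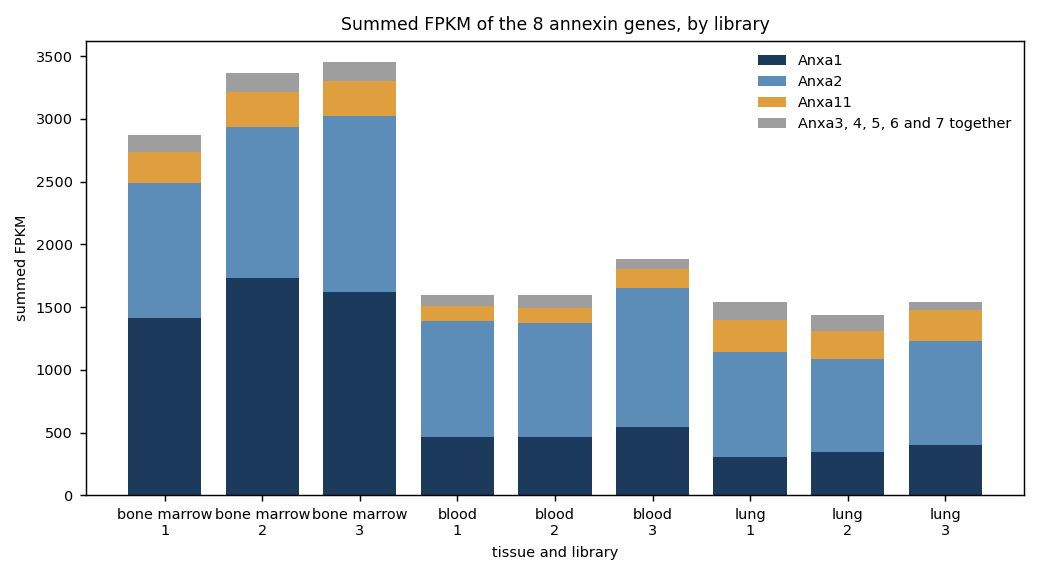
Summed FPKM of the 8 annexin genes in each of the 9 libraries, with the parts of Anxa1, Anxa2, Anxa11 and the other 5 genes stacked. Bone marrow libraries reach 2872 to 3450 FPKM and the blood and lung libraries 1435 to 1881, and the Anxa11 band takes a larger part of the lung bars.

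The order of the levels in FPKM differed between tissues. In bone marrow Anxa1 (1590 ± 163, SD, n = 3) stood above Anxa2 (1226 ± 164), and Anxa11 followed at 268 ± 14.4, then Anxa3 at 69.0 ± 6.30 and Anxa5 at 36.1 ± 1.58. Anxa6 (21.0 ± 2.84) and Anxa7 (17.4 ± 1.25) were neighbours that did not overlap, and Anxa4 was last at 1.55 ± 0.105. In blood Anxa2 (978 ± 111) stood above Anxa1 (492 ± 44.9) and Anxa6 (55.7 ± 9.26) came next after Anxa11 (129.98 ± 18.5). Blood Anxa5 (14.7 ± 3.12), Anxa7 (10.96 ± 0.925) and Anxa3 (7.94 ± 0.995) followed, of which Anxa5 and Anxa7 overlapped. In lung the order of the first 4 was the same as in blood: Anxa2 (799 ± 52.9), Anxa1 (354 ± 48.4), Anxa11 (242 ± 17.1) and Anxa6 (46.1 ± 4.36). Lung Anxa5 (36.4 ± 22.6), Anxa3 (10.6 ± 4.48), Anxa7 (10.3 ± 3.20) and Anxa4 (7.07 ± 5.42) had wide spreads. Anxa5 overlapped Anxa6, Anxa3 and Anxa7, and the ranges of the last 3 genes overlapped each other.

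The design sets neutrophils at their site of formation beside those in the circulation and in a tissue. Between blood and bone marrow, 6 of the 8 genes passed the threshold of adjusted p under 0.05 (edgeR quasi-likelihood test, Benjamini-Hochberg over all 13510 tested genes), where 21.4% of all tested genes did. Of these, 5 were lower in blood (background 13.1%) and 1, Anxa6, was higher (background 8.34%). All 8 had blood libraries that did not overlap the bone marrow libraries, against 45.4% of all tested genes. Of these 7 were lower (background 25.6%) and 1 was higher (background 19.8%). The median log2 fold change over the 8 genes was -1.22, beside -0.05 over all tested genes. In the same comparison 11 of the 14 neutrophil markers fell and 1 rose, and the part of that shift in the annexin values was not tested.

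**Figure D2:**
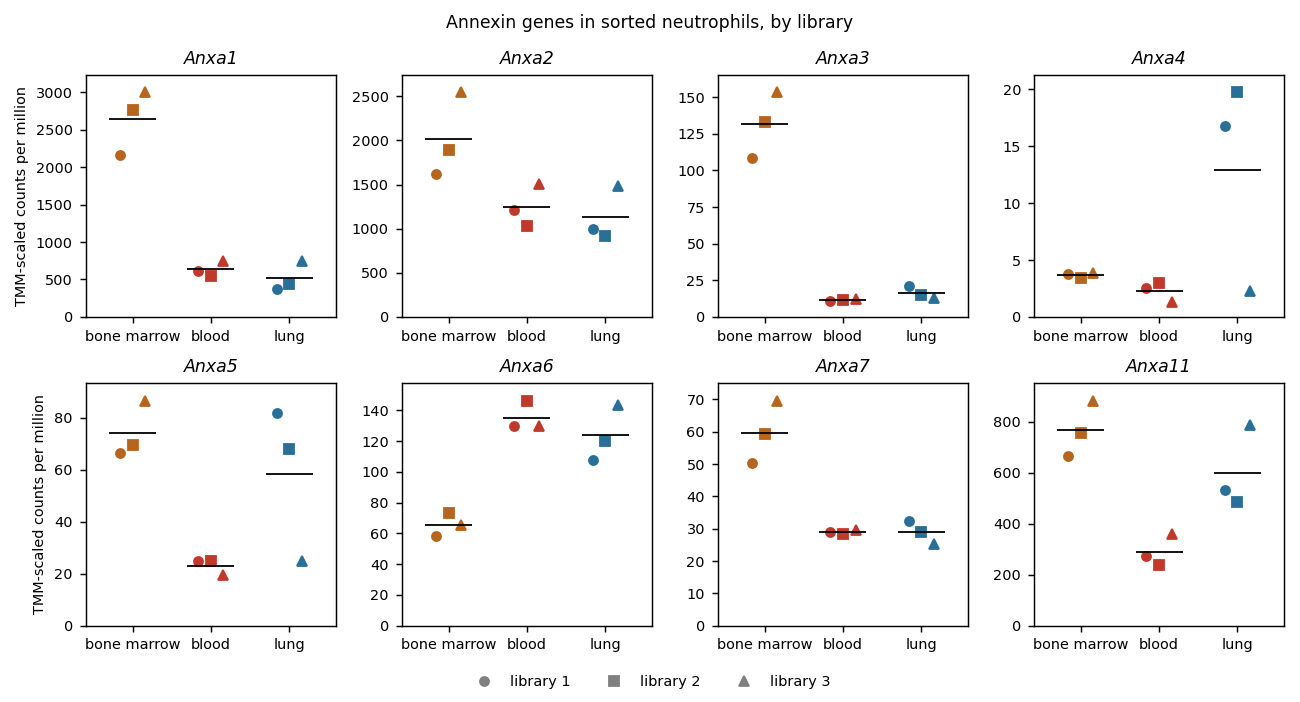
TMM-scaled CPM of each annexin gene in the 9 libraries (symbols give the library number, bars the mean of a tissue, linear axes from 0). Anxa1, Anxa3 and Anxa7 are high in bone marrow alone, Anxa6 is low in bone marrow alone, Anxa11 is low in blood, and Anxa4 and Anxa5 split the lung libraries.

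Anxa1 encodes the glucocorticoid-regulated annexin that acts on formyl peptide receptors. It measured 2168, 2761 and 2998 CPM in the 3 bone marrow libraries, 619, 542 and 751 in blood and 375, 439 and 741 in lung. Every bone marrow library lay far above every other library, and blood and lung overlapped on this scale. In FPKM lung (309 to 405) lay below blood (464 to 544). Its level fell 4.15-fold from bone marrow to blood (log2 fold change -2.05 ± 0.30, SE, adjusted p = 0.00181) and was 5.10-fold lower in lung than in bone marrow (-2.35 ± 0.30, adjusted p = 0.000438). Between lung and blood the difference was -0.30 ± 0.29 (adjusted p = 0.489). That difference passed without lung library 3 (-0.68 ± 0.23, adjusted p = 0.0446) and with limma on log2(FPKM + 1) (-0.48 ± 0.14, adjusted p = 0.0271), and was 0.39 ± 0.30 (adjusted p = 0.422) with lung library 3 alone. Lung against bone marrow with lung library 3 alone, whose spread comes from the other tissues, was -1.56 ± 0.34 (adjusted p = 0.0145). An annotated long non-coding RNA, 1500015L24Rik, overlaps Anxa1 on the other strand, and the sources used here do not say whether the counting used strand.

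Anxa2 encodes the annexin that forms a complex with S100a10 at the plasma membrane and binds plasminogen and its activator there. Its levels were 1622, 1894 and 2543.5 CPM in bone marrow, 1216, 1028 and 1504 in blood and 1000.1, 919 and 1481 in lung. The bone marrow libraries were higher than all others, by a smaller margin than for Anxa1. Blood against bone marrow gave -0.69 ± 0.28 (adjusted p = 0.108) and lung against blood -0.14 ± 0.27 (adjusted p = 0.745). Lung against bone marrow passed at -0.83 ± 0.28 (adjusted p = 0.0405), but the call was lost in 15 of 20 alternatives, with adjusted p up to 0.771. An annotated antisense transcript, Gm16144, also lies within Anxa2.

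The FPKM of Anxa1 relative to that of Anxa2 was 1.32, 1.44 and 1.16 in bone marrow, 0.501, 0.520 and 0.492 in blood and 0.370, 0.470 and 0.493 in lung. Anxa1 was thus the more abundant message in every bone marrow library and the less abundant in every other. The ratio differed among the 3 tissues (exact permutation test over libraries, p = 0.00714, Benjamini-Hochberg adjusted 0.00918 over 9 ratios and shares that were chosen after values were seen). The smallest p this design allows is 0.00357. For 2 tissues alone it is 0.1, so pairs of tissues cannot reach the threshold by this test.

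Anxa3 encodes a small annexin that is abundant in neutrophils and associates with their granules. Its gene lies at chr5:96793385-96845968 on the plus strand. It measured 108, 133 and 153 CPM in bone marrow, 10.6, 11.8 and 12.5 in blood and 21.0, 15.3 and 12.9 in lung. No bone marrow library came near the others, and the lowest lung library was just above the highest blood library. The fall from bone marrow to blood was 11.3-fold (-3.49 ± 0.22, adjusted p = 3.45e-05), the largest of the 8 genes, and lung was 8.02-fold below bone marrow (-3.00 ± 0.21, adjusted p = 2.83e-05). Lung against blood gave 0.49 ± 0.20 (adjusted p = 0.1001). That difference passed in 3 of 21 alternatives (upper-quartile scaling, DESeq2 and without lung library 3), and its adjusted p ran from 0.0337 to 0.426 over all of them. In FPKM lung library 3 (6.14) lay below the blood libraries (6.95 to 8.94), so the groups overlap on that scale.

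Anxa7, at chr14:20455261-20480133 on the minus strand, encodes synexin, known for aggregating secretory granules and for binding sorcin. It measured 50.4, 59.4 and 69.4 CPM in bone marrow, 29.1, 28.5 and 29.7 in blood and 32.3, 28.9 and 25.4 in lung. The bone marrow libraries were all above the rest, while the blood libraries lay inside the lung range. Blood was 2.05-fold below bone marrow (-1.04 ± 0.15, adjusted p = 0.00156) and lung 2.07-fold below it (-1.05 ± 0.15, adjusted p = 0.000702). Lung against blood gave -0.01 ± 0.15 (adjusted p = 0.963). With limma on log2(FPKM + 1) the difference between blood and bone marrow was -0.62 ± 0.20 (adjusted p = 0.0547).

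Anxa11 encodes the annexin with a long tail that binds Pdcd6 and S100a6 and that links RNA granules to lysosomes. It measured 664, 755 and 879.9 CPM in bone marrow, 273, 237 and 359 in blood and 530.0, 483 and 785 in lung. Blood stood below both other tissues with no overlap, and lung overlapped bone marrow. It fell 2.65-fold from bone marrow to blood (-1.40 ± 0.25, adjusted p = 0.00507) and was 2.07-fold higher in lung than in blood (1.05 ± 0.25, adjusted p = 0.0137). Lung against bone marrow gave -0.35 ± 0.25 (adjusted p = 0.287). Both calls against blood were lost when blood library 1 or blood library 2 was left out (adjusted p = 0.0793 and 0.0916 against bone marrow, 0.106 and 0.117 for lung against blood).

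The rise of Anxa11 from blood to lung was 1.61 on the log2 scale with lung library 3 alone, a value that rests on 1 lung library. That library held fewer fibroblast markers than lung libraries 1 and 2 but more than blood. Its fibroblast, lung epithelial and endothelial markers summed to 191, 115 and 23.5 CPM. In blood these sums ranged from 54.9 to 98.3, 28.8 to 44.4 and 13.8 to 18.1 CPM. The 11 macrophage markers summed to 901, 1133 and 1392 CPM in lung, 1005 to 1244 in blood and 433 to 584 in bone marrow. Of the 11, 7 passed as higher in lung than in blood with all libraries. Their order over the lung libraries differed by gene. Csf1r (242, 307 and 475 CPM), Itgax, Adgre1 and Siglecf were highest in lung library 3, and Csf1r averaged 538 CPM in blood. C1qa, C1qb, C1qc and Mertk were lowest in lung library 3. The complement gene C1qa measured 28.0, 20.6 and 12.6 CPM in lung and 0.0869 to 0.392 in blood. Mertk measured 17.7, 28.2 and 1.86 CPM in lung. Marco and Mertk were each at 0 in at least 1 library, and none of the 11 was at 0 in a whole tissue. The part of macrophages, fibroblasts, epithelial and endothelial cells in the Anxa11 values was not tested. In the separately deposited RSEM expected counts, which exist here for blood and lung only, the same rise was 1.28 on the log2 scale (adjusted p = 0.0163). The series count was 1.76 to 1.82 times the RSEM expected count in blood and 1.54 to 1.59 times in lung, so the 2 quantifications differ by tissue for this gene. The antisense transcript Anxa11os overlaps it in the annotation. Against Anxa1, the FPKM of Anxa11 was 0.178, 0.159 and 0.171 in bone marrow, 0.257, 0.254 and 0.278 in blood and 0.823, 0.641 and 0.617 in lung. The 3 tissues did not overlap in this ratio (exact permutation p = 0.00357, the smallest the design allows, adjusted 0.00536).

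Anxa6, at chr11:54978953-55033471 on the minus strand, encodes the large annexin with a duplicated core, known from endosomes and cholesterol handling. It was the 1 member called higher in blood than in bone marrow, where 5 others were called lower. It measured 58.2, 73.1 and 65.4 CPM in bone marrow, 130.1, 146 and 130.1 in blood and 108, 119.9 and 144 in lung. Every blood and lung library was above every bone marrow library. The rise was 2.06-fold in blood (1.05 ± 0.15, adjusted p = 0.00185) and 1.89-fold in lung (0.92 ± 0.15, adjusted p = 0.00172), and both passed under all 20 alternatives. Lung against blood gave -0.13 ± 0.15 (adjusted p = 0.577), and its sign turned with RSEM expected counts (0.25, adjusted p = 0.269).

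Lymphocytes also express Anxa6, so their markers are given beside it. The 7 B-cell markers summed to 108, 60.8 and 26.1 CPM in bone marrow, 353, 341 and 57.3 in blood and 420, 363 and 39.4 in lung. None of the 7 was at 0 in any library, and 1 of the 7 passed as higher in blood than in bone marrow. The 10 T and NK cell markers summed to 30.2 to 74.6, 15.4 to 81.0 and 15.2 to 104 CPM, and none of the 10 was at 0 in any library. Library 3 of blood and of lung had the lowest sums of both lists in its tissue, and Anxa6 there was 130.1 and 144 CPM, against 130.1 to 146 CPM in the other blood libraries and 108 to 119.9 CPM in the other lung libraries. The part of lymphocytes in the Anxa6 values was not tested.

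Anxa6 has 3 annotated transcripts in the table, and the reads assigned to them shifted between tissues. Variant 1 (NM_013472) carries an exon of 18 bases, exon 21 of 26, at chr11:54987051-54987068, which variant 2 (NM_001110211) skips. The exon adds 6 codons to the coding sequence. The lines show it with 30 bases of the neighbouring exons on each side, 5′ to 3′ on the minus strand of GRCm38, from the GENCODE vM21 transcripts matched to these RefSeq entries, and capitals mark the exon.
Anxa6 variant 1: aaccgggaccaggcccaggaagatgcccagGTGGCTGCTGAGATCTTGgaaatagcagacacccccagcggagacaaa
Anxa6 variant 2: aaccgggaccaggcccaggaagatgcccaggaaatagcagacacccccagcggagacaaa
Variant 3 (NR_138556) is annotated as non-coding.

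Variant 1 took 32.7%, 33.4% and 30.1% of Anxa6 reads in bone marrow, 41.7%, 45.3% and 45.4% in blood and 23.9%, 25.7% and 16.8% in lung. Variant 3 took 24.0%, 21.4% and 28.3% in bone marrow, 8.51%, 5.12% and 6.06% in blood and 20.6%, 21.1% and 14.9% in lung. Variant 2 took the rest, with means of 43.3%, 49.3% and 59.0%. In each of the 3 shares no tissue overlapped another, and each differed among tissues (exact permutation p = 0.00357, adjusted 0.00536 over the 9 ratios and shares). The 3 shares are parts of 1 whole, so they are not independent results, though the adjustment counts them separately. Among reads of variants 1 and 2 alone, 42.5% ± 0.525 (SD, n = 3) were assigned to variant 1 in bone marrow, 47.2% ± 1.47 in blood and 27.4% ± 6.79 in lung.

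**Figure D3:**
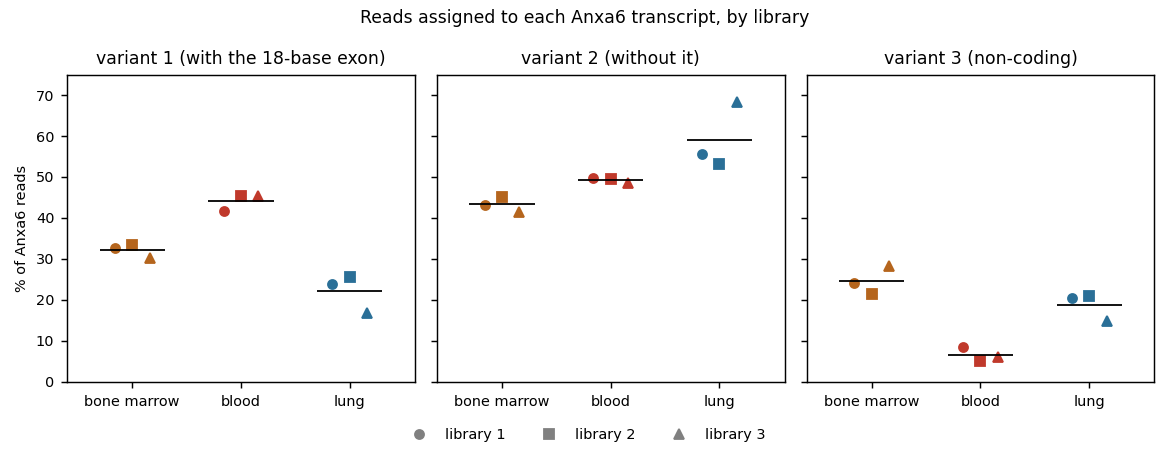
Percentage of Anxa6 reads that the authors' quantification assigned to each of 3 transcripts, by library (symbols give the library number, bars the mean of a tissue). Variant 1, which holds the 18-base exon, is highest in blood and lowest in lung, and variant 3 is lowest in blood.

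These shares rest on the authors' assignment of reads to transcripts that differ in few bases. For Anxa4 the same assignment gave its longer transcript 116, 82 and 0 reads in the blood libraries and its other transcript 0, 89 and 57, so that assignment can swing between libraries. The share of Anxa7 reads assigned to its variant 1 was 21.3%, 25.9% and 33.1% in bone marrow, 33.8%, 5.98% and 45.7% in blood and 12.6%, 6.77% and 24.4% in lung. It overlapped in every pair of tissues (exact permutation p = 0.432). For Anxa6 the series count was 2.16 to 2.18 times the RSEM expected count in blood and 1.65 to 1.77 times in lung.

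Anxa4 and Anxa5 differed between lung libraries as much as between tissues. Anxa4, at chr6:86736840-86793584 on the minus strand, is known mainly from secretory epithelia. It measured 3.74, 3.45 and 3.89 CPM in bone marrow, 2.53, 2.97 and 1.29 in blood and 16.7, 19.7 and 2.26 in lung. Lung libraries 1 and 2 were several times above all others, and lung library 3 lay within the blood range. The rise from blood to lung was 5.69-fold (2.51 ± 0.68, adjusted p = 0.0223), the largest of the 8 genes in that comparison. This call was lost in 10 of 21 alternatives. The rise was 0.19 on the log2 scale without lung libraries 1 and 2. Lung against bone marrow gave 1.81 ± 0.66 (adjusted p = 0.0566), which passed in 7 of 20 alternatives. Blood against bone marrow gave -0.70 ± 0.65 (adjusted p = 0.493).

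Anxa5, at chr3:36448924-36475887 on the minus strand, encodes the annexin used as a probe for exposed phosphatidylserine on dying cells. It measured 66.3, 69.7 and 86.4 CPM in bone marrow, 24.9, 25.01 and 19.3 in blood and 81.9, 68.1 and 25.004 in lung. Bone marrow lay above blood without overlap, lung libraries 1 and 2 were at bone marrow levels and lung library 3 was at the upper end of blood. It fell 3.21-fold from bone marrow to blood (-1.68 ± 0.37, adjusted p = 0.0125), a call lost with limma on log2(FPKM + 1) (-1.26 ± 0.49, adjusted p = 0.0942). From blood to lung it rose 2.53-fold (1.34 ± 0.37, adjusted p = 0.0242), a call lost in 10 of 21 alternatives. Without lung libraries 1 and 2 that difference was 0.30 ± 0.19 (adjusted p = 0.345). Lung against bone marrow gave -0.35 ± 0.36 (adjusted p = 0.471) in all libraries and -1.29 ± 0.21 (adjusted p = 0.00476) with lung library 3 alone, the 1 alternative in which it passed, with its spread taken from the other tissues.

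Markers of other lung cells moved with these genes. Of 11 fibroblast markers 10 rose from blood to lung, of 12 lung epithelial markers 8 rose, and of 10 endothelial markers 9 were tested and 7 rose. Fibroblast markers summed to 1939, 1560 and 191 CPM in the lung libraries. Lung epithelial markers summed to 962, 337 and 115 CPM there, against 28.8 to 44.4 in blood and 66.2 to 131 in bone marrow. Endothelial markers summed to 88.2, 61.1 and 23.5 CPM in lung, 13.8 to 18.1 in blood and 15.2 to 17.1 in bone marrow. In blood the epithelial marker Sftpd and the endothelial markers Kdr, Tek, Cldn5 and Emcn were at 0 in all 3 libraries, and no marker of the 3 lists was at 0 in all 3 lung libraries. Macrophage markers, given with Anxa11, rose too (7 of 11). Their sum was highest in lung library 3, as were Csf1r, Itgax, Adgre1 and Siglecf among the lung libraries. C1qa, C1qb, C1qc and Mertk had their lowest lung level in that library. B-cell markers (420, 363 and 39.4 CPM) and T and NK cell markers (93.9, 104 and 15.2 CPM) split the lung libraries as Anxa4 and Anxa5 did. No gene of these lymphocyte lists passed from blood to lung. The part of these cells in the levels of Anxa4 and Anxa5 was not tested.

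**Figure D4:**
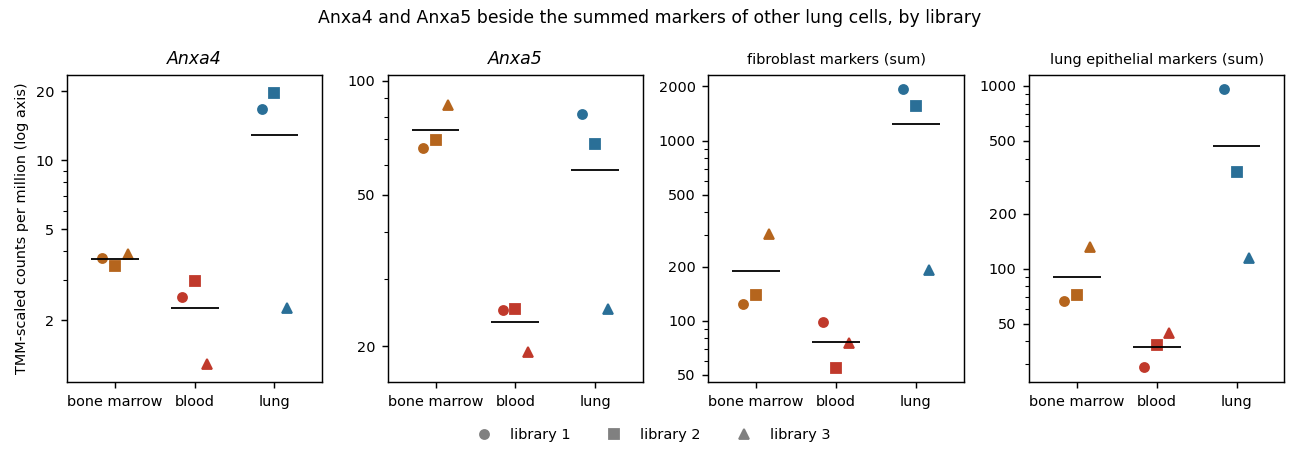
Anxa4, Anxa5 and the summed fibroblast and lung epithelial markers in the 9 libraries, in TMM-scaled CPM on log axes (symbols give the library number, bars the mean of a tissue). In all 4 panels lung libraries 1 and 2 lie above lung library 3.

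Over the whole family, lung against blood gave 3 calls, all higher (Anxa4, Anxa5 and Anxa11), where 28.9% of all tested genes passed and 13.2% passed as higher. Of the 8 genes, 2 had lung libraries that did not overlap blood (Anxa3 and Anxa11), against 41.6% of all tested genes. The median log2 fold change of the 8 was 0.24, beside 0.05 over all tested genes. Lung against bone marrow gave 5 calls, Anxa6 higher and Anxa1, Anxa2, Anxa3 and Anxa7 lower, where 38.2% of all tested genes passed (15.6% higher and 22.6% lower). Groups did not overlap for 5 genes, against 49% of all tested genes, with 4 lower (background 28.9%) and 1 higher (background 20.1%), and the median was -0.59 beside 0.06. In the joint test of any difference among the 3 tissues 7 of 8 passed, against 46.1% of all tested genes, and Anxa2 did not (adjusted p = 0.0562). The comparisons share libraries in pairs and are not independent of each other.

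**Figure D5:**
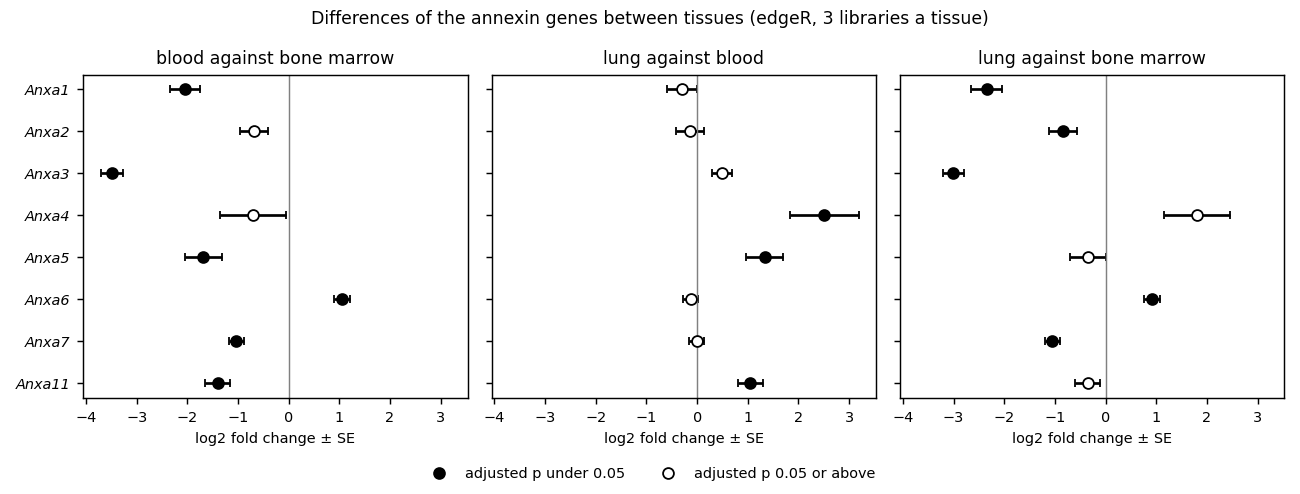
Log2 fold changes with standard errors of the 8 annexin genes in the 3 comparisons (edgeR, 3 libraries a tissue, filled points have adjusted p under 0.05). Blood against bone marrow has 5 filled points below 0 and Anxa6 above it, and in lung against blood the filled points are Anxa4, Anxa5 and Anxa11.

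The other 4 annexin genes in the table were low or at 0. Anxa10 and Anxa13 had 0 reads in all 9 libraries. That allows up to 0.0528 to 0.0714 CPM, depending on the library (3 reads over all its reads, counting error only). These limits lack the TMM scaling of the other CPM values. Anxa8 had 0 reads in every bone marrow library, 2, 7 and 0 reads in blood and 76, 16 and 0 in lung, with the reads in the same lung libraries as Anxa4. Anxa9 was detected in every library, at 0.795 to 2.45 CPM, and passed in no comparison. Its blood mean of 1.93 CPM was near that of Anxa4 (2.26 CPM).

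The lists that follow were read against the share of all tested genes called in each direction: 8.34% higher and 13.1% lower in blood against bone marrow, 13.2% and 15.7% in lung against blood, and 15.6% and 22.6% in lung against bone marrow. A list whose share is near these is not set apart by its count. These shares come from the fit of all 9 libraries and are no yardstick for counts with lung library 3 alone. In that fit a smaller share of all tested genes passed in both lung comparisons, and more of the calls were higher than lower. Counts with lung library 3 alone are therefore not read against a share. The partners of the annexins were followed through a list of 10 genes, of which 9 were tested. Between blood and bone marrow 5 of the 9 fell and none rose, between lung and blood none passed, and between lung and bone marrow 4 fell. With lung library 3 alone 2 rose from blood to lung and 2 fell from bone marrow to lung. The median log2 fold changes of the 9 were -1.04, 0.18 and -0.73. The genes that fell in both comparisons with bone marrow included the penta-EF-hand calcium sensors Sri (sorcin, a partner of Anxa7), Pef1 and Gca, and S100a6. In lung these 4 gave -1.88, -1.87, -0.83 and -1.14 against bone marrow. With lung library 3 alone they gave -1.51, -1.25, -0.18 and -0.52. Sri measured 181, 196 and 239.5 CPM in bone marrow, 59.2, 51.0 and 59.1 in blood and 56.3, 52.0 and 59.7 in lung. Its fall to blood was -1.86 ± 0.15 (adjusted p = 8.88e-05), with bone marrow above all other libraries, as for Anxa7.

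Pdcd6, the calcium sensor that binds Anxa11, measured 126, 90.9 and 179 CPM in bone marrow, 56.9, 41.9 and 54.7 in blood and 89.8, 63.8 and 131 in lung. Blood lay below both other tissues without overlap. It fell from bone marrow to blood (-1.37 ± 0.31, adjusted p = 0.0143), and lung against blood gave 0.89 ± 0.31 (adjusted p = 0.0592), or 1.53 ± 0.32 (adjusted p = 0.0196) with lung library 3 alone.

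The partners of Anxa1 and Anxa2 lay far apart in FPKM. S100a11, which binds the tail of annexin A1, measured 4721 ± 807 FPKM (SD, n = 3) in bone marrow, 3246 ± 394 in blood and 3259 ± 372 in lung, above every annexin gene. Relative to Anxa1 it was 2.97 ± 0.428 in bone marrow, 6.58 ± 0.193 in blood and 9.24 ± 0.701 in lung, with no overlap of tissues (exact permutation p = 0.00357, adjusted 0.00536). Its own differences did not pass, with -0.91 ± 0.32 (adjusted p = 0.0708) in blood against bone marrow. S100a10, the light chain of the Anxa2 complex, measured 13.2, 10.5 and 4.11 FPKM in bone marrow, 19.2, 35.3 and 7.55 in blood and 90.7, 61.7 and 6.14 in lung. Its FPKM relative to that of Anxa2 was at most 0.108 in any library, and this ratio was not separated among tissues (exact permutation p = 0.221). Like Anxa4, S100a10 was high in lung libraries 1 and 2 and low in lung library 3.

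Of 9 genes for receptors, export and cleavage of annexin A1, 6 were tested. From bone marrow to blood 4 fell and 1 rose, lung against blood gave no call, and lung against bone marrow gave 4 lower and 1 higher. With lung library 3 alone these were 1 higher from blood to lung, and 2 lower and 2 higher from bone marrow to lung. Fpr2, the receptor through which annexin A1 acts, measured 377, 365 and 480.2 CPM in bone marrow, 105, 82.3 and 106 in blood and 115, 118 and 169 in lung. It fell with Anxa1 from bone marrow to blood (-2.06 ± 0.21, adjusted p = 0.000282), and lung against blood gave 0.45 ± 0.21 (adjusted p = 0.134), or 0.96 ± 0.23 (adjusted p = 0.0313) with lung library 3 alone. Fpr1, the high-affinity formyl peptide receptor, also fell to blood (-1.06 ± 0.25, adjusted p = 0.0185) and was lower in lung than in bone marrow (-1.25 ± 0.26, adjusted p = 0.00512), a call lost with lung library 3 alone (-0.51 ± 0.29, adjusted p = 0.257). Abca1, a lipid transporter linked to annexin A1 export, rose from 7.67 ± 1.66 CPM (SD, n = 3) in bone marrow to 25.8 ± 7.09 in blood (1.75 ± 0.27, adjusted p = 0.00218) and stood at 41.3 ± 9.95 in lung. Elane, the granule protease neutrophil elastase, measured 44.2, 18.1 and 2.43 CPM in bone marrow and at most 0.0906 CPM in any blood or lung library.

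Lists of other genes that work on the same membranes were counted in the same way. Of 19 tested plasma membrane repair genes, 9 fell and 2 rose from bone marrow to blood (median -0.58), and 4 rose and 3 fell from blood to lung (median 0.02), or 5 and 1 with lung library 3 alone. Capn1, a calpain protease, measured 681 ± 92.4 CPM in bone marrow, 345 ± 69.4 in blood and 184 ± 30.3 in lung, and was lower in lung than in blood (-0.91 ± 0.21, adjusted p = 0.0127), a call lost with lung library 3 alone (-0.52 ± 0.30, adjusted p = 0.286). Syt11, a synaptotagmin, went from 3.79 ± 0.887 CPM in bone marrow to 26.4 ± 8.46 in blood (2.80 ± 0.33, adjusted p = 0.000543). Of 12 tested flippases and scramblases, which set how much phosphatidylserine is exposed for annexins to bind, 8 fell and none rose from bone marrow to blood (median -0.65), and 8 fell and 1 rose from bone marrow to lung, where 2 fell and none rose with lung library 3 alone. The flippase Atp11a fell from 399 ± 18.5 to 121 ± 17.97 CPM (-1.72 ± 0.23, adjusted p = 0.00102). The scramblase Plscr1 fell in blood (-1.29 ± 0.23, adjusted p = 0.00499) and was the 1 gene of the list that rose from blood to lung (0.87 ± 0.23, adjusted p = 0.0203).

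Phospholipase A2 enzymes, which annexin A1 was first described as inhibiting, split: of 9 tested, 3 fell and 2 rose from bone marrow to blood, and 3 rose and none fell from blood to lung (2 and none with lung library 3 alone). Pla2g4a, the cytosolic enzyme that releases arachidonic acid, fell from 17.0 ± 0.387 to 8.73 ± 0.769 CPM (-0.96 ± 0.15, adjusted p = 0.00218), and Pla2g7 rose from 359 ± 70.3 to 886 ± 177 CPM (1.30 ± 0.33, adjusted p = 0.0213). Of 7 tested copines, another family of calcium-dependent membrane binders, 1 fell and none rose from bone marrow to blood, and 2 rose and 1 fell from blood to lung (1 and none with lung library 3 alone). Cpne2 measured 351, 329 and 463 CPM in bone marrow, 102, 81.9 and 108 in blood and 243, 206 and 429.9 in lung. Blood was below both other tissues without overlap, as for Anxa11 (-1.97 ± 0.29, adjusted p = 0.00199 against bone marrow, and 1.59 ± 0.29, adjusted p = 0.00455 for lung against blood).

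Of 16 glucocorticoid response genes, a class to which Anxa1 belongs in other cells, 1 rose and 1 fell from bone marrow to blood, and 4 rose and 3 fell from blood to lung (3 and 1 with lung library 3 alone). Tsc22d3, the glucocorticoid-induced leucine zipper, measured 655, 634 and 855 CPM in bone marrow, 593, 707 and 1456 in blood and 254, 226 and 251 in lung. It was lower in lung than in blood (-1.91 ± 0.33, adjusted p = 0.00371), a call lost with lung library 3 alone (-1.71 ± 0.57, adjusted p = 0.0896). Hsd11b1, which regenerates active glucocorticoid, fell from 133 ± 18.3 CPM in bone marrow to 9.39 ± 0.896 in blood (-3.82 ± 0.19, adjusted p = 1.5e-05) and was 35.5 ± 6.33 in lung (1.92 ± 0.17 against blood, adjusted p = 0.000247). The receptor gene Nr3c1 measured 204 ± 17.4, 218 ± 21.4 and 215 ± 78.5 CPM.

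Of 8 tested plasminogen activation genes, the pathway of the Anxa2 complex, 4 fell and none rose from bone marrow to blood, and 6 rose and none fell from blood to lung (median 2.25), or 3 and none with lung library 3 alone. Plaur, the urokinase receptor, measured 1369, 1251 and 1843 CPM in bone marrow, 759, 326 and 430 in blood and 1513, 1486 and 2759 in lung. Its rise from blood to lung was 1.93 ± 0.38 (adjusted p = 0.00653), or 2.63 ± 0.41 (adjusted p = 0.00611) with lung library 3 alone. Plgrkt, a plasminogen receptor, rose from 24.9 ± 4.24 to 62.9 ± 11.9 CPM (1.34 ± 0.19, adjusted p = 0.00156). Plat, the tissue plasminogen activator, measured 17.1, 9.95 and 0.819 CPM in the lung libraries. It was highest in those with the most fibroblast markers, and the part of those cells was not tested.

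The genes most like each annexin across the 9 libraries were found by the smallest root-mean-square difference of centred log2 CPM among 4842 genes. For Anxa1 these were Sqrdl (0.108), Arhgdib (0.125) and Triobp (0.131), and for Anxa2 Cers2 (0.0838), Alox5ap (0.0869) and Bst1 (0.0903). Anxa3 was nearest to Dmwd (0.319), Golim4 (0.321) and Wfdc21 (0.343), which measured 451 CPM on average in bone marrow and 49.6 in blood. Anxa6 was nearest to Nrm (0.136), St3gal1 (0.142) and Mcoln1 (0.157), and Anxa7 to Vti1b (0.127), Ap2s1 (0.127) and Capns1 (0.127). Anxa11 was nearest to Mcemp1 (0.105), Stim2 (0.125) and Rap2a (0.127). The nearest genes to Anxa4 were Prdx1 (0.334), Pld3 (0.543) and Lmna (0.608), and to Anxa5 Cyb5a (0.283), Cndp2 (0.312) and Hsp90ab1 (0.328). Within the family the closest pair was Anxa2 and Anxa7 (0.308). A search within 8 genes finds close matches less readily than one among 4842, so this distance is not compared with those above.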

How the data were processed

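RNA of sorted neutrophils from 3 tissues was sequenced as polyA libraries, with a kit that the labels name as both standard and stranded. The submitters' processing notes list mm10 as the build and, without role or order, the tools RSEM, STAR, Bowtie2, DESeq2 and StringTie (2.1.3b). Per the file headers, the deposited table of all libraries gives a read count and an FPKM for each RefSeq transcript. The counts were whole, and in each library the FPKM equalled the count over transcript length and 1 constant, within 1%. The deposited blood and lung files hold RSEM expected counts, rounded here before testing, and TPM, per the file headers.

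Counts were summed by gene, kept by filterByExpr (13510 of 24532 genes), scaled with edgeR's TMM factors (trimmed means of M-values) and fitted in all 9 libraries with edgeR 4.0.16 (robust quasi-likelihood, group means). Contrasts were tested on both sides, p-values were adjusted by Benjamini-Hochberg over all tested genes, and 0.05 was the threshold. SE is the absolute log2 fold change over the square root of F. CPM is TMM-scaled. The fit was tested on simulated counts. R 4.3.3 ran edgeR, DESeq2 1.42.0 and limma 3.58.1. Tables were handled in Python 3.11.15 with pandas 2.3.3 and numpy 2.4.6, and drawn with matplotlib 3.10.9. Alternatives changed the scaling, filter, tool, unit, depth (counts divided by 2), libraries and replicate block.

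All 8 members are named. From each other list the rule takes up to 4 passing genes with the smallest adjusted p and a level of 5 CPM or more in the higher tissue, besides S100a10, S100a11, Pdcd6, Fpr1 and Fpr2 always. The text prints fewer, and Nr3c1 was added after values were seen. The values of 1 gene on a list are not reported here. Likeness used a prior count of 2 and a mean of at least 20 CPM. The members and lists were chosen with earlier results of these data known. Library numbers follow the titles, and the numbers in the column names are 1 higher.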

Additional observations from a re-analysis of the deposited data

How the results depend on the processing

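All calls of Anxa1, Anxa3 and Anxa6 against bone marrow held under all 20 alternatives. In lung against blood the 3 calls became 1, Anxa11, with the 6 libraries of those tissues, with limma-voom and with RSEM expected counts. Of all tested genes 21.8%, 24.5% and 22.3% passed there. The fit without lung libraries 1 and 2 was an alternative chosen after seeing the data. Leaving out 1 library gave 5 to 6 calls in blood against bone marrow, where 8.51% to 27.1% of all tested genes passed. In lung against blood it gave 1 to 5 (13.2% to 40.1% of all), and in lung against bone marrow 4 to 7 (22.4% to 47.8% of all). The joint test gave 6 to 8. With all 9 libraries 46.1% of all tested genes passed it, but the share in these smaller fits was not taken. The range is therefore not read as a result about the annexins. The 5 in lung against blood came without lung library 3, where Anxa1 and Anxa3 joined and 40.1% of all tested genes passed.

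Signs turned only for differences that had not passed, and none of the turned values passed. In lung against blood without lung libraries 1 and 2, Anxa1 gave 0.39, Anxa2 0.42 and Anxa6 0.27, and in lung against bone marrow Anxa4 gave -0.44 and Anxa11 0.31. Upper-quartile scaling gave 0.0123, 0.0205 and 0.158 for Anxa2, Anxa6 and Anxa7 in lung against blood and 0.00793 for Anxa5 in lung against bone marrow. RSEM gave 0.253 for Anxa6 and 0.00601 for Anxa7. Anxa7 also gave 0.0608 with a filter of 1 CPM in 3 libraries, 0.0266 with counts divided by 2 and 0.0804 with DESeq2. Leaving out 1 library, lung against blood ran from -0.414 to 0.0614 for Anxa2 (positive without blood library 3) and from -0.0992 to 0.0386 for Anxa7 (positive without blood or lung library 3). The cause was not tested.

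Upper-quartile scaling moved the median of all genes from -0.05 to 0.11, 0.05 to 0.21 and 0.06 to 0.38 in the 3 comparisons, and the share of calls that were higher from 39.0%, 45.6% and 40.9% to 52.6%, 55.9% and 59.3%.

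Titles share replicate numbers, but the labels name no shared animal. Same-numbered libraries correlated at 0.0489 to 0.518 in their deviations, 8 of 9 over 0.1. Pairs with different numbers ran from -0.504 to 0.453, 4 of 18 over 0.1. So 1 pair (bone marrow and blood library 1) kept the numbers from counting as pairs. Of 18 best matches 13 had the own number, a hint from the data and not the design. With a replicate block, 7, 3 and 5 genes passed in blood against bone marrow, lung against blood and lung against bone marrow. Of all tested genes 29.5%, 35.2% and 44.2% passed there. In the joint test with the block 8 passed, a count for which the share of all tested genes was not taken. The added gene was Anxa2 (adjusted p = 0.0133 in blood against bone marrow and 0.00522 in the joint test). With 3 libraries a tissue, small differences such as those of Anxa2 are near the limit of the design, and Anxa4 rests on 57 to 990 reads a library.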
